A study of Mus musculus with 18 samples.

Results

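Quiescence, the resting state of naive lymphocytes, is maintained by transcription factors and by proteins that limit translation and mRNA stability. The genes described here are 10 such factors, listed by symbol and matched to gene identifiers in the mouse GRCm38 annotation. The list was chosen with earlier results of these data known. All 10 were found among the 51912 genes of the deposited tables. 4 encode Krüppel-like zinc finger factors (*Klf2*, *Klf3*, *Klf4* and *Klf13*), 3 encode forkhead factors (*Foxo1*, *Foxo3* and *Foxp1*), and 3 encode antiproliferative proteins of the BTG/TOB family (*Btg1*, *Btg2* and *Tob1*).

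KLF2 holds lymphocytes in a resting, circulating state and drives genes for homing and exit from tissue, such as the sphingosine-1-phosphate receptor *S1pr1*. FOXO1 and FOXO3 act in the nucleus when PI3K-AKT signaling is low, and AKT phosphorylation sends them to the cytoplasm, so that their activity is set largely at the protein level. FOXP1 is a forkhead factor of a separate subfamily that is required for normal B-cell development. BTG1, BTG2 and TOB1 bind the CCR4-NOT deadenylase, which shortens the poly(A) tails of mRNAs. CD40L is the T-cell ligand of CD40 and one of the signals that move a follicular B cell out of rest.

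Poly(A) RNA was sequenced from B cells of C57BL/6 mice that were either wild type (WT) or *Sh3gl1*-/-, a germline loss of endophilin A2, a membrane-curvature protein of endocytosis. Cells of 3 kinds were compared in each genotype: sorted transitional B cells (the immature stage entering the spleen), sorted follicular B cells taken directly ex vivo, and follicular B cells cultured with CD40L for 14 h. Each of the 6 groups held 3 libraries, described as biological replicates from littermates, which gave 18 libraries. The study itself gives other lengths for this culture, and the length in the labels is used here. The age and sex of the mice are not given in the sources used here. No culture without CD40L was analysed here, so the effects of CD40L and of culture itself cannot be told apart, and because the deletion is germline, every cell type of the knockout mice lacked the gene.

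The position of each gene is given on GRCm38. *Klf2* (ENSMUSG00000055148) lies on the forward strand at chr8:72319033-72321656, *Klf3* (ENSMUSG00000029178) on the forward strand at chr5:64803388-64832901, *Klf4* (ENSMUSG00000003032) on the reverse strand at chr4:55527143-55532466, and *Klf13* (ENSMUSG00000052040) on the reverse strand at chr7:63886351-63938915. *Foxo1* (ENSMUSG00000044167) lies on the forward strand at chr3:52268336-52353221, *Foxo3* (ENSMUSG00000048756) on the reverse strand at chr10:42181841-42276755, and *Foxp1* (ENSMUSG00000030067) on the reverse strand at chr6:98925338-99522721. *Btg1* (ENSMUSG00000036478) lies on the forward strand at chr10:96617006-96622809, *Btg2* (ENSMUSG00000020423) on the reverse strand at chr1:134075170-134079120, and *Tob1* (ENSMUSG00000037573) on the forward strand at chr11:94211454-94215495. *Foxp1* overlaps *Gm20696* on the same strand, and that gene held 421 to 1930 counts per library. *Foxo1* likewise overlaps *Gm38034*, with 63 to 516 counts, so the division of reads within these 2 pairs is uncertain.

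Promoter windows of the 10 genes were read from RefSeq (GRCm38.p6), 250 bases upstream of each annotated start, in 12 windows because *Foxp1* has 3 starts. The GC box GGGCGG, a site for SP and KLF proteins, was searched on both strands and occurred in 11 of the 12 windows, against 32.7% of 32851 mouse windows of the same length. The KLF-type letters CACCC, searched in the same way, occurred in 6 windows, against 52.0% of all windows. The forkhead letters TGTTTAC occurred in 1 window, that of *Btg1* (3.17% of all windows), and the cyclic AMP response element TGACGTCA in 1 window, that of *Btg2* (1.55% of all windows). Matches to different motifs may overlap, and a match is a description of the letters and not evidence of binding. The 4 windows printed are those of the gene with the largest fall in culture (*Klf2*), of the FOXO gene with the higher level (*Foxo1*), and of the only genes with the forkhead and cyclic AMP letters (*Btg1* and *Btg2*). They run 5′ to 3′ on the strand of the gene, from 250 to 31 bases before the start, with matches to the 4 motifs in capitals. The coordinates are chr8:72318812-72319031 (forward) for *Klf2*, chr3:52268087-52268306 (forward) for *Foxo1*, chr10:96616751-96616970 (forward) for *Btg1* and chr1:134079186-134079405 (reverse) for *Btg2*. The single CACCC match of *Klf2* lies in the 30 bases that are not printed.
Klf2: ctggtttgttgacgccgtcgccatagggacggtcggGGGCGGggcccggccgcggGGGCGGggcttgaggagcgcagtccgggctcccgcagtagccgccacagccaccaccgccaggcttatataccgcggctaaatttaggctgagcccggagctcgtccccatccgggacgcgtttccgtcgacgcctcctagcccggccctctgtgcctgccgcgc
Foxo1: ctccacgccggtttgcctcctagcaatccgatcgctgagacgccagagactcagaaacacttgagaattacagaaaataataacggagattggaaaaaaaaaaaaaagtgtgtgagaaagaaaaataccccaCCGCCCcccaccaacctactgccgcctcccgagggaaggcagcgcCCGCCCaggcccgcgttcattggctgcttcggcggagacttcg
Btg1: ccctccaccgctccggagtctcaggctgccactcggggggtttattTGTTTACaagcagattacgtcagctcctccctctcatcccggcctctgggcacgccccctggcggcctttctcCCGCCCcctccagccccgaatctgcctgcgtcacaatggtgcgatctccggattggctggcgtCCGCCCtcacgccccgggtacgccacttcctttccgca
Btg2: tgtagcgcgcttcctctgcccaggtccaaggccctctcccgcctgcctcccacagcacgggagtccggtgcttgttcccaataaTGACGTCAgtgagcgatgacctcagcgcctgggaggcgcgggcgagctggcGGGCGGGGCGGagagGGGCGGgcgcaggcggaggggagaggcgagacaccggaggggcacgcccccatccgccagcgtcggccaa

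The libraries held 12404665 to 18366011 rounded gene counts, with a median of 14804232. *Sh3gl1* had 377 to 929 counts per WT library and 1 to 22 per knockout library, so every library matched its labeled genotype. Summed B-cell markers were at 8334 CPM (counts scaled to library size) or more in each library, and transitional markers were higher in transitional than in follicular libraries of the same genotype (877 to 1012 against 376 to 461 CPM in WT). Markers of other cells were also present. In WT, summed erythroid markers fell from 792 to 2139 CPM in follicular libraries to 3.59 to 213 CPM after CD40L culture, and summed T-cell markers fell from 59.96 to 88.3 CPM to 10.4 to 12.5 CPM. The knockout had more of several of these markers, and their values stand beside the genotype results.

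In resting follicular cells of WT mice, the 10 genes spanned a wide range of abundance. TPM values, which are scaled by transcript length and therefore allow genes to be compared, averaged 384 ± 24.7 (SD, n = 3) for *Foxp1*, 316 ± 13.1 for *Btg1*, 184 ± 6.35 for *Btg2* and 118 ± 3.99 for *Klf13*. These 4 genes were separated from each other, with no overlap between the libraries of neighbors in this order. *Klf3* at 38.2 ± 1.79 and *Klf2* at 34.9 ± 6.44 TPM overlapped, followed by *Foxo1* at 18.9 ± 1.73 and *Foxo3* at 6.42 ± 0.492 TPM. *Tob1* (2.25 ± 0.425 TPM) and *Klf4* (2.11 ± 0.491 TPM) were the lowest and overlapped. Within the forkhead genes, *Foxp1* supplied 93.8% ± 0.662 of the summed TPM, and within the KLF genes listed here *Klf13* supplied 61.0% ± 1.02.

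The order differed in a few places in the other groups. In follicular cells of the knockout, *Btg1* averaged 381 ± 5.01 TPM and stood above *Foxp1* at 349 ± 32.5 TPM, although the libraries of the 2 genes overlapped. In transitional WT cells *Klf2* (30.6 ± 1.98 TPM) stood above *Klf3* (26.8 ± 0.339 TPM) with no overlap. After CD40L culture *Klf2* dropped to the ninth rank in WT, at 0.983 ± 0.638 TPM, below *Tob1* at 1.45 ± 0.142 TPM, whose libraries it overlapped. The plot of levels by library gives each gene on the TMM-scaled CPM scale, which is comparable between libraries but not between genes.

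**Figure D1:**
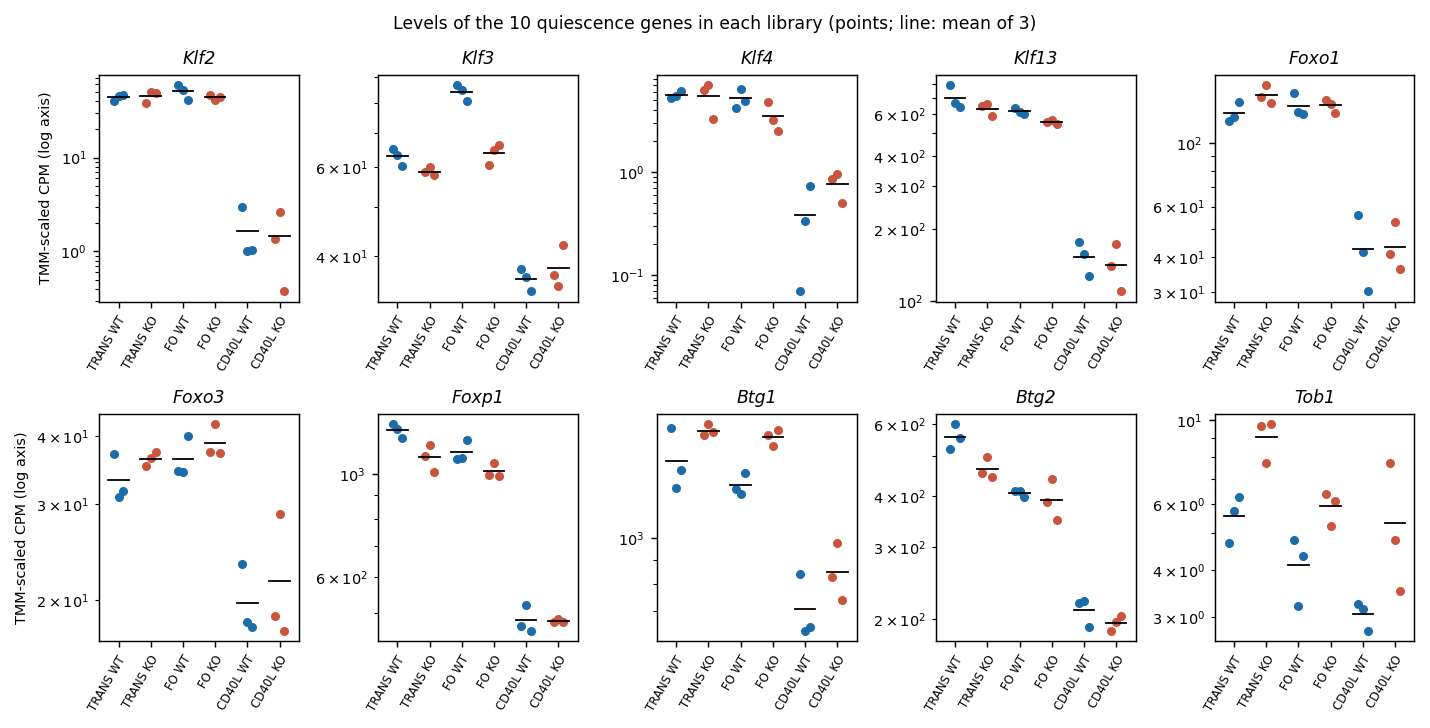
Each panel plots one of the 10 genes, with the 6 groups on the horizontal axis (TRANS, transitional; FO, follicular ex vivo; CD40L, follicular after CD40L; blue, WT; red, *Sh3gl1*-/-) and TMM-scaled CPM on a logarithmic vertical axis. Points are libraries and lines are means of 3: the CD40L libraries lie below all follicular libraries of their genotype for every gene except *Tob1*.

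The exit of follicular cells from rest was examined first, by comparing CD40L-cultured with ex vivo follicular cells in each genotype. 9 of the 10 genes fell in WT and the same 9 fell in the knockout, and none rose, with *Tob1* the exception in both. In WT the falls ranged from 1.86-fold for *Btg1* to 31.3-fold for *Klf2*, and in the knockout from 1.70-fold for *Klf3* to 31.4-fold for *Klf2*, and the median log2 change of the 10 genes was -1.24 in WT and -1.05 in the knockout. Across all genes tested the medians were -0.08 and -0.03, and 25.7% of genes in WT and 21.8% in the knockout were called lower at an adjusted p under 0.05 (49.3% and 42.4% in either direction). All 9 genes in each genotype had CD40L libraries that did not overlap the ex vivo libraries, which held in this direction for 29.6% of all genes tested in WT and 27% in the knockout. Since the 10 genes were chosen with earlier results of these data known, these shares are a description and not independent evidence. In bulk RNA, a smaller share of cells of one type and less RNA per cell cannot be told apart.

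Among the Krüppel-like factors, *Klf2* was almost lost from the RNA. In WT it was at 59.4, 52.4 and 41.3 CPM in the ex vivo libraries and at 2.97, 1.003 and 1.04 CPM after culture. Knockout libraries held 46.2, 40.6 and 44.0 CPM ex vivo and 1.34, 2.64 and 0.376 CPM after culture. Every cultured library lay far below every ex vivo library, and the cultured values rested on 15 to 43 reads in WT and 6 to 33 in the knockout. The log2 change was -4.97 (SE 0.44, adjusted p = 7.9e-07), a 31.3-fold fall, in WT and -4.97 (SE 0.45, adjusted p = 1.2e-06), a 31.4-fold fall, in the knockout.

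*Klf13*, the most abundant of the KLF genes listed here, fell 4.09-fold in WT and 3.98-fold in the knockout. Its WT values were 633, 611 and 597 CPM ex vivo against 175, 157 and 127 CPM in culture, a log2 change of -2.03 (SE 0.15, adjusted p = 1.6e-07). Knockout libraries went from 553, 568 and 546 CPM to 140.4, 173 and 110.0 CPM, a log2 change of -1.99 (SE 0.15, adjusted p = 2.3e-07). The culture libraries were low in both genotypes and spread more widely than the ex vivo libraries.

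*Klf4*, a factor that restrains lymphocyte division, was rare at rest and close to the limit of detection in culture. WT libraries held 4.21, 6.42 and 4.89 CPM ex vivo and 0.069, 0.334 and 0.734 CPM in culture, where the counts were 1 to 12 reads. Knockout libraries held 4.73, 3.19 and 2.51 CPM ex vivo and 0.848, 0.959 and 0.501 CPM in culture, with 8 to 12 reads. All cultured libraries were below all ex vivo ones. The log2 change was -3.74 (SE 0.55, adjusted p = 7.0e-05) in WT and -2.19 (SE 0.51, adjusted p = 0.0034) in the knockout.

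*Klf3*, a KLF family repressor, moved least of the 4. It fell from 86.9, 84.9 and 80.7 CPM to 37.8, 36.4 and 34.2 CPM in WT, a log2 change of -1.25 (SE 0.11, adjusted p = 4.9e-07). In the knockout it fell from 60.5, 64.7 and 66.1 CPM to 36.8, 34.9 and 42.2 CPM, a log2 change of -0.76 (SE 0.10, adjusted p = 5.5e-05). The knockout libraries started lower and ended at a similar level to WT.

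All 3 forkhead genes fell as well. *Foxo1* was at 149.6, 129 and 127 CPM in WT ex vivo libraries and at 55.9, 41.5 and 30.2 CPM in culture, and the log2 change was -1.70 (SE 0.19, adjusted p = 7.7e-06). Its knockout values were 142, 138 and 128 CPM against 41.0, 52.9 and 36.1 CPM, with a log2 change of -1.67 (SE 0.19, adjusted p = 1.2e-05). The spread among cultured libraries was wide for a gene of this depth, but the highest of them stayed well below the lowest ex vivo library.

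*Foxp1*, the most abundant forkhead gene here, fell with a narrow spread. WT libraries went from 1076, 1081 and 1185 CPM to 469.7, 522 and 459 CPM, and knockout libraries from 994, 1058 and 987 CPM to 479, 487 and 479 CPM. Both genotypes ended within a range of 459 to 522 CPM. The log2 change was -1.23 (SE 0.08, adjusted p = 4.6e-08) in WT and -1.09 (SE 0.08, adjusted p = 1.7e-07) in the knockout. *Foxo3* showed the smallest fall of the forkhead genes, -0.91 (SE 0.18, adjusted p = 0.00099) in WT and -0.86 (SE 0.18, adjusted p = 0.0018) in the knockout on the log2 scale. Its cultured libraries lay at 17.8 to 23.3 CPM in WT and 17.5 to 28.7 CPM in the knockout, below ex vivo ranges of 34.3 to 40.0 and 37.2 to 42.0 CPM.

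The abundant BTG genes fell less than most of the transcription factor genes. *Btg1* was at 1273, 1241 and 1377 CPM in WT ex vivo libraries and at 842, 637 and 649 CPM in culture, a log2 change of -0.90 (SE 0.12, adjusted p = 3.2e-05). In the knockout it fell from 1659, 1567 and 1692 CPM to 829, 977 and 739 CPM, a log2 change of -0.97 (SE 0.12, adjusted p = 2.3e-05). It kept 637 CPM or more in every cultured library. *Btg2*, which is also a p53 and immediate early target, fell from 412, 411 and 397 CPM to 219, 221 and 191 CPM in WT, a log2 change of -0.98 (SE 0.10, adjusted p = 3.0e-06). In the knockout it fell from 386, 439 and 350.4 CPM to 188, 197 and 204 CPM, with a log2 change of -1.01 (SE 0.10, adjusted p = 2.9e-06).

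*Tob1* did not pass the test in either genotype. Its WT libraries were at 4.80, 3.21 and 4.37 CPM ex vivo and at 3.24, 3.14 and 2.75 CPM in culture, a log2 change of -0.46 (SE 0.30, 95% interval -1.11 to 0.18, adjusted p = 0.22). The knockout libraries were at 6.39, 5.23 and 6.09 CPM ex vivo and at 7.70, 4.80 and 3.51 CPM in culture, a log2 change of -0.17 (SE 0.29, 95% interval -0.79 to 0.46, adjusted p = 0.68). The groups overlapped in both genotypes, and with 45 to 109 reads per follicular or cultured library a fall of the size seen for *Btg1* lay outside the interval in the knockout but inside it in WT.

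**Figure D2:**
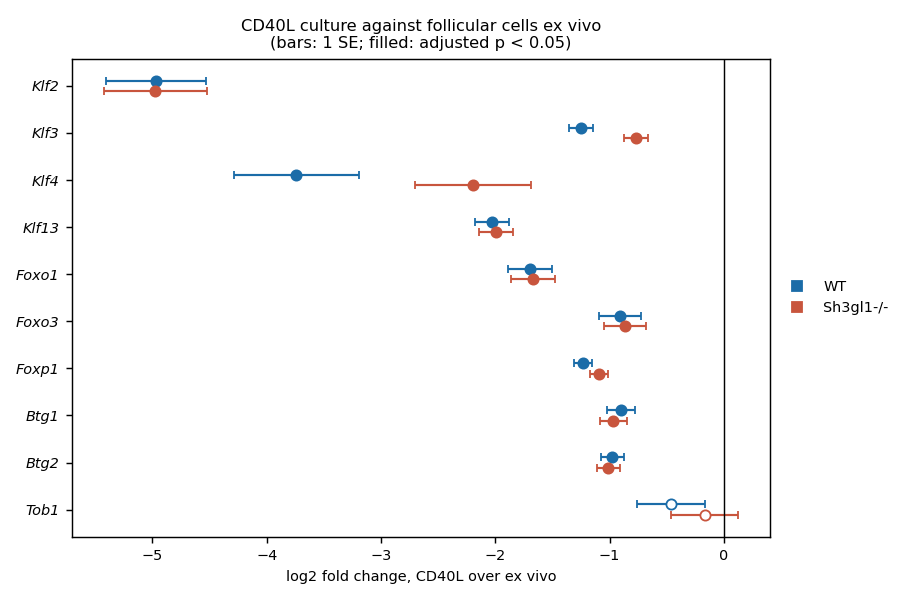
Log2 fold change of each gene between CD40L-cultured and ex vivo follicular cells (horizontal axis), in WT (blue) and *Sh3gl1*-/- (red). Points are edgeR estimates, bars are 1 SE and filled points have an adjusted p under 0.05. All 10 genes lie left of 0 in both genotypes. Of these, 9 are filled in both, from -4.97 for *Klf2* to -0.76 for *Klf3* in the knockout, and the *Tob1* points are open.

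Genes that act around these factors were read from lists that were also chosen with earlier results of these data known. Of 13 other *Klf* genes, 8 were tested, and 4 fell and none rose in each genotype. *Klf11* (-3.72, SE 0.53, adjusted p = 5.6e-05) and *Klf6* (-1.13, SE 0.14, adjusted p = 1.3e-05) fell in WT, and so did they in the knockout (-3.53, SE 0.54 and -0.77, SE 0.14 on the log2 scale, adjusted p = 0.00015 and 0.00045). *Klf6* was the most abundant of the other *Klf* genes in follicular WT cells, at 133 ± 1.24 TPM, which is close to *Klf13*. Of 5 other forkhead genes of the FOXO and FOXP classes, 3 were tested, and *Foxo4* fell (-1.32, SE 0.29, adjusted p = 0.0019) and *Foxp4* rose (0.69, SE 0.27, adjusted p = 0.048) in WT. In the knockout *Foxp3*, the regulatory T-cell factor, was the only one to pass the test (-3.37, SE 1.04, adjusted p = 0.018).

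Lymphocyte genes known as targets of FOXO1 or KLF2 fell with the factors. Of 17 tested (19 listed), 12 fell and 1 rose in WT, with a list median of -1.10, and 13 fell and 1 rose in the knockout, with a list median of -0.98. Among the large falls in WT were those of *S1pr1* (-5.54, SE 0.21, adjusted p = 3.7e-10), the integrin chain *Itgb7* (-4.19, SE 0.37, adjusted p = 7.0e-07) and the stress gene *Gadd45a* (-3.36, SE 0.52, adjusted p = 0.00011). In the knockout *S1pr1* fell by 4.595 and *Itgb7* by 4.22 on the log2 scale (SE 0.20 and 0.37, adjusted p = 1.5e-09 and 1.0e-06). The summed level of the list went from 2763 to 2804 CPM in WT ex vivo libraries to 639 to 740 CPM in culture.

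Most of the genes upstream of FOXO that passed fell. Of 17 tested, 10 fell and 2 rose in WT, and 11 fell and 3 rose in the knockout. *Sgk1*, a kinase that phosphorylates FOXO proteins, fell (-3.76, SE 0.27, adjusted p = 1.3e-07 in WT and -3.32, SE 0.27, adjusted p = 4.7e-07 in the knockout), as did the PI3K inhibitor *Pik3ip1* (-2.82, SE 0.27, adjusted p = 1.7e-06 and -2.19, SE 0.26, adjusted p = 1.6e-05). *Phlpp1*, an AKT phosphatase, rose (1.999, SE 0.21, adjusted p = 3.8e-06 and 1.98, SE 0.21, adjusted p = 5.9e-06). The CCR4-NOT list of 12 genes, which includes the poly(A)-binding protein gene *Pabpc1*, was split, with 2 genes higher and 2 lower in each genotype. *Pabpc1* rose (1.02, SE 0.13, adjusted p = 2.7e-05 and 0.81, SE 0.13, adjusted p = 0.00024), and the deadenylase subunit *Cnot6l* fell (-0.95, SE 0.12, adjusted p = 1.7e-05 and -0.91, SE 0.12, adjusted p = 3.5e-05).

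Most of the other quiescence genes that passed fell, while most of the growth genes that passed rose. Of 18 other quiescence genes, 10 fell and 1 rose in WT, and 9 fell and 2 rose in the knockout. The CDK inhibitor *Cdkn2d* fell (-2.92, SE 0.11, adjusted p = 3.2e-10 and -2.95, SE 0.11, adjusted p = 3.8e-10), while the CDK inhibitor *Cdkn1a* rose (3.07, SE 0.43, adjusted p = 4.9e-05 and 3.20, SE 0.44, adjusted p = 6.3e-05). Of 22 growth and division genes, 18 rose and 1 fell in WT, and 13 rose and 1 fell in the knockout, including the replication genes *Top2a* (2.92, SE 0.38, adjusted p = 2.8e-05 in WT) and *Mcm3* (2.51, SE 0.39, adjusted p = 0.00013 in WT). Of 18 immediate early genes tested, 10 fell and 2 rose in WT and 11 fell and 2 rose in the knockout. *Fos* fell in both genotypes (-6.63, SE 0.48, adjusted p = 1.3e-07 and -5.88, SE 0.51, adjusted p = 9.2e-07). The markers of other cells given above fell along with these genes. All 6 T-cell, 4 erythroid, 5 neutrophil and 4 NK-cell markers were called lower in both genotypes. Of 5 macrophage markers, 4 were called lower and 1 higher in each genotype. Of 4 dendritic-cell markers, 1 was called lower and 1 higher in WT, and 1 lower and 2 higher in the knockout. Of 4 plasma-cell markers, 2 were called lower in each genotype and 1 higher in the knockout. The part of these cells in the results was not tested.

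**Figure D3:**
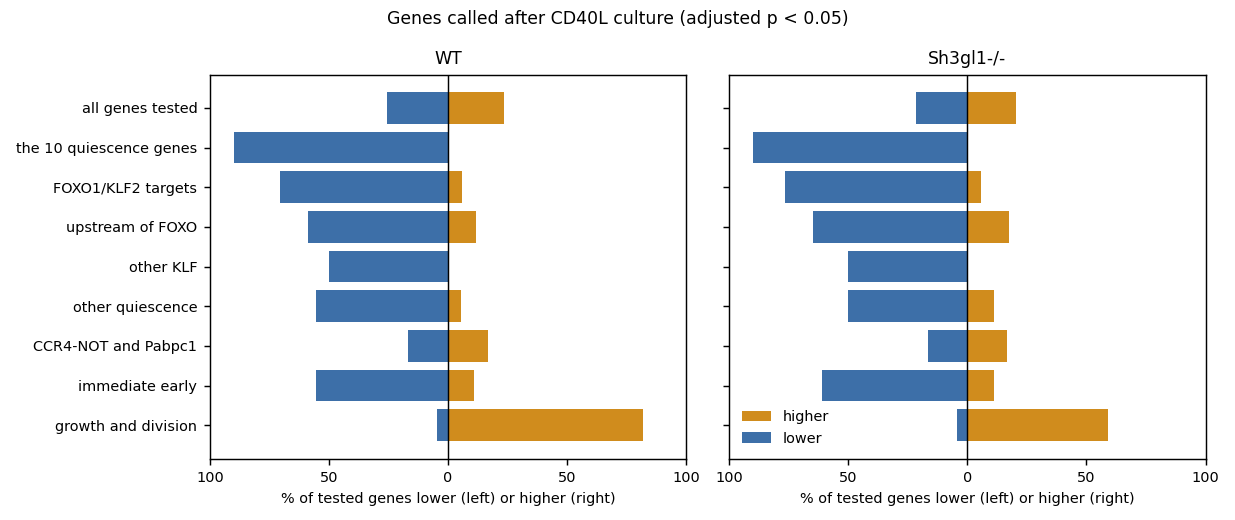
Percent of the tested genes in each list that were called lower (left bars) or higher (right bars) after CD40L culture, in WT and *Sh3gl1*-/-, with all genes tested in the top row. The 10 quiescence genes reach 9 of 10 on the left in both panels, against 25.7% and 21.8% of all genes, while the growth and division list extends to the right. The lists were chosen with earlier results of these data known.

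Whether the response to CD40L differed between genotypes was tested as an interaction, defined as the change in the knockout minus the change in WT. None of the 10 genes passed, and of 14460 genes tested 0 passed in edgeR (1278 at an unadjusted p under 0.05, and 29 at an adjusted p under 0.05 in DESeq2). The largest differences were those of *Klf4* (1.55, SE 0.74, 95% interval -0.05 to 3.14, adjusted p = 0.57) and *Klf3* (0.48, SE 0.15, 95% interval 0.17 to 0.80, adjusted p = 0.47) on the log2 scale. Both were smaller falls in the knockout, and for *Klf4* the WT libraries in culture held only 1 to 12 reads. For *Klf2* the difference was -0.0038 (SE 0.46), with a 95% interval of -0.995 to 0.99, and for *Foxo1* it was 0.03 (SE 0.27, 95% interval -0.54 to 0.60). *Foxp1*, the most precisely measured, differed by 0.14 (SE 0.11, 95% interval -0.10 to 0.38).

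Maturation from the transitional to the follicular stage was compared next. These comparisons use the same ex vivo follicular libraries as the CD40L comparisons. The quiescence genes moved little, with log2 changes of -0.45 to 0.43 in WT and -0.68 to 0.11 in the knockout. In WT 1 gene rose and 1 fell, while 25.9% of the 14580 genes tested were called (11.7% higher and 14.2% lower). In the knockout none of the 10 was called, against 10.4% of all genes. In each genotype 4 of the 10 were under an unadjusted p of 0.05 in edgeR. Of the 14580 genes tested, 5532 in WT and 3482 in the knockout were under that level. These WT and knockout values came from a fit without a term for the replicate number.

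*Klf3* rose in WT follicular cells, from 65.0, 63.4 and 60.3 CPM to 86.9, 84.9 and 80.7 CPM, a log2 change of 0.43 (SE 0.08, adjusted p = 0.0014). In the knockout it went from 58.5, 59.9 and 57.8 CPM to 60.5, 64.7 and 66.1 CPM, a change of 0.11 (SE 0.08, adjusted p = 0.45). The groups did not overlap in either genotype, a separation in this direction that 19.9% of all genes tested showed in WT and 14.7% in the knockout. The difference between genotypes, -0.32 (SE 0.11, 95% interval -0.56 to -0.08), did not pass (adjusted p = 0.23), and 10 genes of 14580, or 0.0686%, passed in that test.

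*Btg2* fell in WT, from 522, 599 and 553 CPM to 412, 411 and 397 CPM, a log2 change of -0.45 (SE 0.09, adjusted p = 0.0020). In the knockout it was at 455, 497 and 446 CPM in transitional and at 386, 439 and 350.4 CPM in follicular libraries, a change of -0.26 (SE 0.09, adjusted p = 0.069). With the replicate number as a block the knockout value passed the test (-0.26, adjusted p = 0.028), and it passed in DESeq2 too (-0.26, adjusted p = 0.028). The knockout value passed as well without follicular knockout replicate 2 (-0.34, adjusted p = 0.022). With a block for the number within each genotype it also passed in edgeR (-0.27, adjusted p = 0.021). The groups did not overlap in either genotype, as for 20.9% of all genes tested in WT and 15.7% in the knockout in this direction, and the difference between genotypes was 0.19 (SE 0.12, adjusted p = 0.52).

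The other 8 genes did not pass in either genotype, although *Btg1* in WT, at -0.16 (SE 0.09, adjusted p = 0.19), passed without transitional WT replicate 2 (-0.25, adjusted p = 0.0495). *Tob1* was at -0.42 (SE 0.22, adjusted p = 0.18) in WT and -0.63 (SE 0.22, adjusted p = 0.083) in the knockout, where transitional libraries held 9.67, 7.72 and 9.77 CPM and follicular libraries 6.39, 5.23 and 6.09 CPM. *Klf2* was at 0.23 (SE 0.13, adjusted p = 0.23) in WT and -0.07 (SE 0.13, adjusted p = 0.81) in the knockout. *Foxo1* was at 0.09 (SE 0.09) and -0.14 (SE 0.09), with adjusted p of 0.52 and 0.43. *Klf13* was slightly lower in follicular cells of both genotypes, with no overlap of the groups, but did not pass (-0.18, SE 0.08, adjusted p = 0.11 and -0.19, SE 0.08, adjusted p = 0.15). *Foxp1* in WT (-0.15, SE 0.07, adjusted p = 0.11) and *Tob1* in the knockout were also lower without overlap. Separation in this direction was shown by 20.9% of all genes tested in WT and 15.7% in the knockout.

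**Figure D4:**
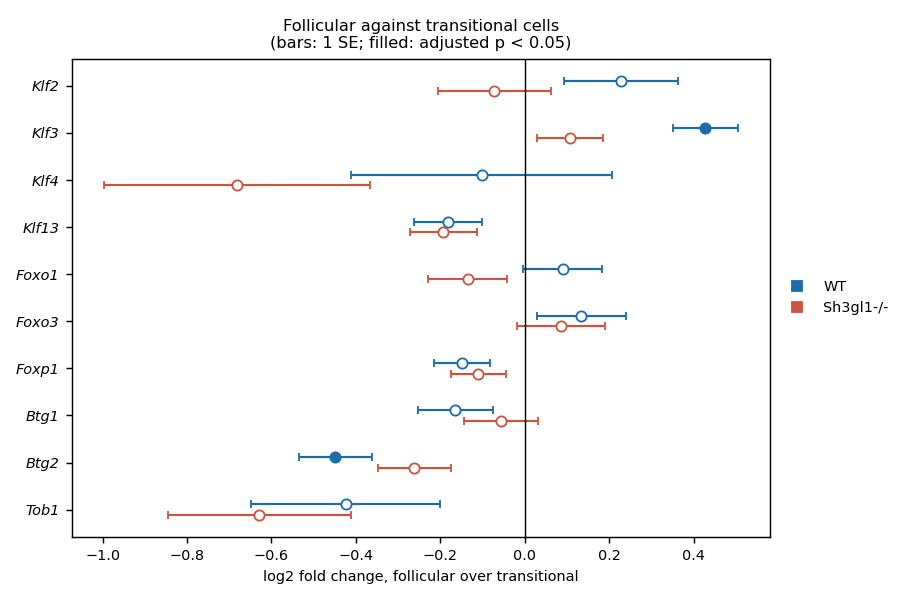
Log2 fold change between follicular and transitional cells (horizontal axis) for each gene in WT (blue) and *Sh3gl1*-/- (red), with bars of 1 SE and filled points for an adjusted p under 0.05. Only *Klf3* (0.43) and *Btg2* (-0.45), both in WT, are filled.

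In the related lists, the targets of FOXO1 or KLF2 moved in both directions, with 5 higher and 6 lower of 18 tested in WT, and 4 higher and 2 lower in the knockout. *Itgb7* rose (1.25, SE 0.16, adjusted p = 0.00011 in WT and 1.07, SE 0.16, adjusted p = 0.00064 in the knockout), and the recombinase gene *Rag1* fell to 0 counts in every follicular library of both genotypes. Among the other *Klf* genes *Klf6* rose in both genotypes (0.54, SE 0.08, adjusted p = 0.00020 and 0.33, SE 0.08, adjusted p = 0.0100), and *Foxo4* rose in WT (1.57, SE 0.24, adjusted p = 0.00045). Of the 22 growth and division genes, 14 fell and none rose in WT, and 4 fell and 1 rose in the knockout. *Top2a* fell by 2.84 in WT (SE 0.20, adjusted p = 2.5e-06) and by 1.14 in the knockout (SE 0.19, adjusted p = 0.0014) on the log2 scale. The difference between genotypes was called for 3 of the 22, among them *Top2a* (1.71, SE 0.27, adjusted p = 0.041). That test called 10 genes in all, 0 to 23 without single libraries and 0 in the fit of all 18 libraries. Macrophage markers moved with maturation too, with all 5 lower in WT and 4 of 5 lower in the knockout, from summed levels of 485 to 579 CPM in WT transitional libraries to 107 to 137 CPM in follicular ones. The plasma-cell marker *Jchain* fell (-2.75, adjusted p = 0.00038 in WT and -4.49, adjusted p = 2.6e-05 in the knockout). Summed plasma-cell markers in the knockout were 1086 to 4566 CPM in transitional and 143 to 177 CPM in follicular libraries. Of 5 marginal zone markers, 3 were called lower in each genotype, and 1 of 6 T-cell markers was called higher in WT. The part of these cells in the results was not tested.

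The effect of endophilin A2 loss was tested in each of the 3 states. 1 of the 10 genes passed, in 1 state: *Btg1* was higher in knockout than in WT follicular cells. WT libraries held 1273, 1241 and 1377 CPM and knockout libraries 1659, 1567 and 1692 CPM, without overlap, a log2 difference of 0.34 (SE 0.06, adjusted p = 0.034). This was in a comparison where 0.845% of 13610 genes were called (0.485% higher). The call was lost without WT replicate 1 (adjusted p = 0.12), WT replicate 2 (0.16), knockout replicate 1 (0.16) or knockout replicate 3 (0.10), and in a fit of all 18 libraries (adjusted p = 0.35), while the difference stayed between 0.31 and 0.38 on the log2 scale in all these fits. In transitional cells *Btg1* was at 1710.4, 1276 and 1395 CPM in WT and at 1652, 1745 and 1677 CPM in the knockout, a difference of 0.21 (SE 0.11, adjusted p = 0.28) that passed without WT replicate 1 (0.35, adjusted p = 0.048). After CD40L the difference was 0.29 (SE 0.16, adjusted p = 0.75), and the groups overlapped in both of these states.

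*Tob1* was higher in the knockout in every state, with no overlap between the genotypes, but passed the test in none of them. In transitional cells WT libraries held 4.72, 5.74 and 6.24 CPM and knockout libraries 9.67, 7.72 and 9.77 CPM, a log2 difference of 0.70 (SE 0.22, adjusted p = 0.099). In follicular cells the values were 4.80, 3.21 and 4.37 CPM against 6.39, 5.23 and 6.09 CPM, a difference of 0.52 (SE 0.27, adjusted p = 0.55). After CD40L they were 3.24, 3.14 and 2.75 CPM against 7.70, 4.80 and 3.51 CPM, a difference of 0.83 (SE 0.34, adjusted p = 0.69). Separation in this direction was shown by 13.6%, 8.06% and 6.21% of all genes tested in the 3 states, and the counts behind these values were 45 to 165 reads per library.

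A further comparison, added after these values were seen, averaged the genotype effect over the 3 states in one fit of all 18 libraries. *Tob1* was then higher in the knockout by 0.67 (SE 0.15, adjusted p = 0.016) and *Btg1* by 0.27 (SE 0.07, adjusted p = 0.034) on the log2 scale, in a comparison that called 3.83% of 15117 genes (1.96% higher). *Tob1* was called in all 18 fits that left out 1 library, with adjusted p of up to 0.040, and *Btg1* in 6 of 18, with adjusted p of up to 0.078. Because same-numbered libraries of a genotype may come from one mouse, the average was also fitted in limma-voom with genotype and number as a random effect, which gave adjusted p of 0.026 for *Tob1* and 0.028 for *Btg1*. The correlation between libraries sharing genotype and number was estimated at 0.010 in this fit, so the random effect carried little weight. Since the comparison was chosen from the same data, it adds no independent evidence for these 2 genes.

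The remaining genes gave no call between genotypes. In follicular cells *Klf3* was lower in the knockout, at 60.5, 64.7 and 66.1 CPM against 86.9, 84.9 and 80.7 CPM, without overlap (as for 7.98% of all genes tested in this direction), but missed the threshold in edgeR (-0.40, SE 0.09, adjusted p = 0.076). It passed with DESeq2 (-0.40, adjusted p = 0.0083) and when all genes with at least 1 count were kept (-0.40, adjusted p = 0.027). In transitional cells and after CD40L its differences were -0.10 (SE 0.09, adjusted p = 0.55, without overlap) and 0.10 (SE 0.14, adjusted p = 0.88, with overlap). *Btg2* was lower in transitional cells of the knockout, without overlap, as for 14.4% of all genes in this direction (-0.26, SE 0.08, adjusted p = 0.12), and passed there with DESeq2 (adjusted p = 0.042). *Foxp1* differed by -0.19 (SE 0.08, adjusted p = 0.19) in transitional, -0.14 (SE 0.06, adjusted p = 0.47) in follicular and 0.02 (SE 0.11, adjusted p = 0.97) in cultured cells. For *Foxo1*, *Foxo3* and *Klf2* no difference beyond 0.23 in size was estimated in any state, and after CD40L the 95% interval for *Klf2* was -1.75 to 1.37. No member was called in CD40L-cultured cells, where 3 of 13188 genes, or 0.0227%, passed, and none was called in transitional cells, where 3.73% of genes passed.

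**Figure D5:**
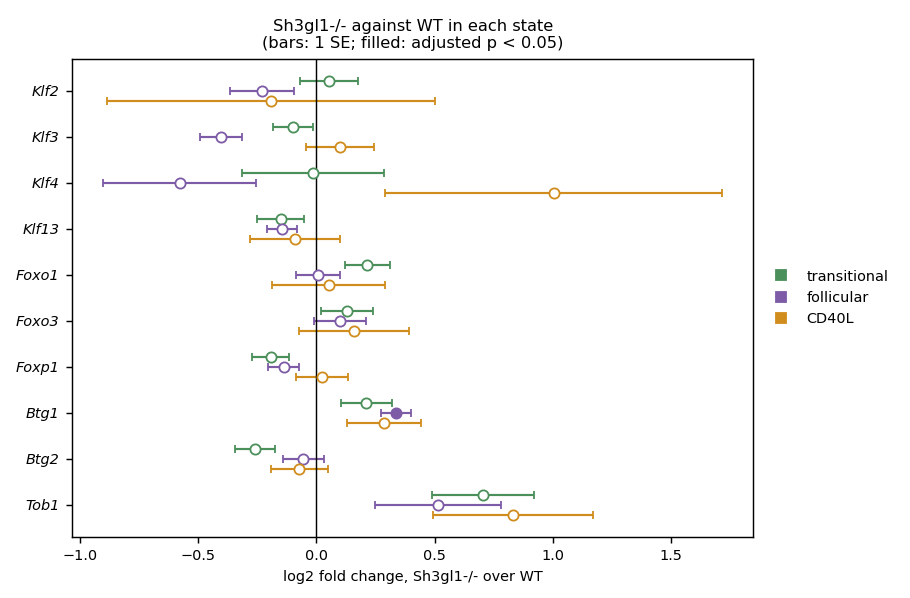
Log2 difference between *Sh3gl1*-/- and WT (horizontal axis) for each gene in transitional (green), follicular (purple) and CD40L-cultured (orange) cells, with bars of 1 SE and filled points for an adjusted p under 0.05. The *Tob1*, *Btg1*, *Foxo1* and *Foxo3* points lie right of 0 in all 3 states, and the only filled point is *Btg1* in follicular cells (0.34).

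Markers of other cells differed between genotypes in the libraries behind these values. Summed erythroid markers were 1277 to 2191 CPM in WT and 2460 to 5293 CPM in knockout transitional libraries, where all 4 markers were called higher, and 792 to 2139 against 1695 to 5217 CPM in follicular libraries, where none was called. Summed neutrophil markers were 58.7 to 166 CPM in WT and 166 to 743 CPM in knockout follicular libraries, and summed T-cell markers 59.96 to 88.3 against 124 to 168 CPM, with 2 of 6 called. Summed plasma-cell markers reached 1086 to 4566 CPM in knockout transitional libraries against 429 to 669 CPM in WT. After CD40L the erythroid sums overlapped (3.59 to 213 CPM in WT and 16.1 to 63.9 CPM in the knockout), while those of neutrophil (9.06 to 38.9 against 49.0 to 178 CPM) and T-cell markers (10.4 to 12.5 against 16.4 to 20.98 CPM) did not, and no tested gene of these lists was called. None of the erythroid, neutrophil, T-cell and plasma-cell markers was at 0 in any of the groups. Summed B-cell markers were lower in the knockout without overlap in follicular libraries (10527 to 11068 against 11923 to 12241 CPM in WT). After CD40L they were also lower without overlap (8334 to 8576 against 8962 to 9552 CPM). In transitional libraries the B-cell sums overlapped, and none of the 6 B-cell markers was called in any state. The part of the cell makeup in the *Btg1* and *Tob1* values was not tested.

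Few related genes were called between genotypes. In transitional cells 10 of the 22 growth and division genes were lower in the knockout and none higher, with *Mki67* at -1.35 (SE 0.25, adjusted p = 0.028) and *Top2a* at -1.34 (SE 0.18, adjusted p = 0.0093). Markers of B-cell stage were lower in the same knockout libraries. Summed transitional markers were 877 to 1012 CPM in WT and 509 to 810 CPM in the knockout, with *Cd24a* called, and summed marginal zone markers 341 to 366 against 201 to 251 CPM, with *Cd1d1* called. In follicular libraries the transitional sums (376 to 461 against 301 to 316 CPM) and the marginal zone sums (180.3 to 222 against 147 to 157 CPM) were also lower in the knockout, with *Cd24a* called. Their part in the genotype results was not tested. In follicular cells none of the 22 was called, and neither was any of the other *Klf*, CCR4-NOT, upstream or target genes. The glucocorticoid-induced quiescence gene *Tsc22d3* was lower in the knockout in transitional (-0.43, SE 0.10, adjusted p = 0.048) and follicular cells (-0.55, SE 0.10, adjusted p = 0.026), and the stress-induced *Ndrg1* was higher in follicular cells (1.52, SE 0.17, adjusted p = 0.0032). In transitional cells *Slfn2*, which maintains T-cell quiescence, was also lower (-0.55, SE 0.10, adjusted p = 0.026), and *Mxd4*, a MAX partner that opposes MYC, was higher (0.46, SE 0.10, adjusted p = 0.046). The only immediate early gene called in follicular cells was *Fos*, lower in the knockout (-1.20, SE 0.21, adjusted p = 0.025).

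Finally, the genes with the most similar patterns were found by Pearson correlation of log2 CPM over the 18 libraries among 15117 genes. The 18 points include the cultured and the ex vivo libraries of both genotypes. *Mirt1* (0.99) was most like *Klf2*, *Cd2* (0.99) most like *Klf13*, *Resf1* (0.99) most like *Foxo1*, *Ralgps2* (0.99) most like *Foxp1* and *Ceacam1* (0.99) most like *Btg2*. *Macf1*, *Thap6* and *Rp9* led for *Klf3*, *Klf4* and *Foxo3*, each at 0.97. *Bnip3l* and *Aldh2* (both 0.96) were among the genes most like *Btg1*. *Tob1* had the loosest match, *I830127L07Rik* at 0.86, followed by the metallothionein *Mt1* and the lysosomal cholesterol-binding protein gene *Npc2* (both 0.85).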

How the data were processed

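Poly(A) RNA-seq of 18 libraries (6 groups of 3) was analysed from 1 merged table that the authors deposited, which holds, for each library, expected counts, length-scaled TPM and FPKM for 51912 genes. The submitters' processing notes name cutadapt 1.9.1, STAR 2.5.2a, RSEM 1.3.0 and GRCm38, whereas the methods of the study name another aligner and library kit, and the study gives other lengths for the CD40L culture than the labels. The expected counts, as deposited, are RSEM estimates that share out reads of overlapping genes, and 28.5% to 31.0% of values above 0 per library were not whole, so they were rounded. TPM as deposited by the authors were used only to compare levels between genes, and the FPKM of the authors were not used. No column of sample values was left out (0).

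The 10 members and the related lists were chosen with earlier results of these data known. All members are named, and from each list up to 4 genes per comparison were eligible, those past the threshold with the largest log2 change. A few eligible genes are not reported here. Groups came from the labels. Rounded counts were filtered (filterByExpr), scaled by TMM and tested with the edgeR (4.0.16, R 4.3.3) quasi-likelihood test with Benjamini-Hochberg adjustment over all genes tested, at an adjusted p under 0.05, and every adjusted p is from this test unless another tool is named. Genotype was fitted on the 6 libraries of a state, and maturation and CD40L, with their interactions with genotype, on 12 libraries. The SE was the log2 change divided by the square root of F, and 95% intervals were computed from it with the test's degrees of freedom. CPM are TMM-scaled over all 18 libraries. With 3 libraries a group, p-values measure the spread between libraries of littermates. Replicate libraries differed by more than sampling noise, so none was merged. The scripts were tested on simulated data.

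Whether replicate numbers pair libraries was checked from the correlation of deviations from group means over 15117 genes. Every pair was over 0.1, the level taken as pairing, for transitional with follicular libraries in WT (0.103 to 0.242) and in the knockout (0.115 to 0.263). The same held for follicular with cultured WT libraries (0.136 to 0.224). The main fits, those not named as alternatives, nevertheless held no term for the replicate number. WT and knockout libraries of a number were not paired (-0.088 to 0.101). Alternatives were DESeq2 (1.42.0), RLE scaling, library totals, other filters on low counts, the replicate block, all 18 libraries in 1 fit, and leaving out each library. The genotype average, also fitted with limma-voom (3.58.1), and a block within genotype were added after seeing the data. The replicate block held shared terms per number for WT and knockout, while the block within genotype held separate ones.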

Additional observations from a re-analysis of the deposited data

How the results depend on the processing

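All 9 falls after CD40L were called in both genotypes under each of the 20 alternatives run. Of 1310 member values under alternatives, 1274 kept their direction and side of the threshold, 5 lost the call, 9 gained one and 22 changed sign, all 22 of them values that were never called. Called members moved from 0 to 1 for maturation in the knockout (*Btg2*, with DESeq2, the replicate block or the block within genotype, and 0 to 1 without single libraries), from 0 to 1 for genotype in transitional cells (*Btg2* with DESeq2, and 0 to 1 without single libraries, where the gene was *Btg1*, without WT replicate 1), and from 1 to 2 for genotype in follicular cells (*Klf3* added, with DESeq2 or all genes with at least 1 count) or to 0 (all 18 libraries in 1 fit, and 0 to 1 without single libraries). The replicate block changed no other member's call. For follicular with cultured knockout libraries the pair correlations were 0.119, 0.079 and 0.030, under the level taken as pairing, although all 6 libraries correlated best with their own number, which is a hint from the data only.

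Among the values that changed sign, the largest log2 difference in the main fits was -0.19, for *Klf2* between genotypes after CD40L. With library totals, genotype gave 0.0059 for *Klf4* in transitional and -0.024 for *Foxo1* in follicular cells, and in the fit of all 18 libraries -0.0054 for *Foxp1* after CD40L. Without single libraries, genotype after CD40L ranged from -0.95 to 0.50 for *Klf2*, -0.27 to 0.063 for *Klf13*, -0.15 to 0.29 for *Foxo1*, -0.11 to 0.29 for *Foxo3* and -0.022 to 0.081 for *Foxp1*. In follicular cells it ranged from -0.038 to 0.086 for *Foxo1* and -0.14 to 0.017 for *Btg2*, and in transitional cells from -0.0061 to 0.16 for *Klf2* and -0.22 to 0.24 for *Klf4*. Maturation of *Klf4* in WT ranged from -0.29 to 0.028, and the CD40L change of *Tob1* in the knockout from -0.51 to 0.10. The cause was not tested.

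Counts over all genes depended more on the fit. Genotype called 514 genes in transitional cells, against 1340 with DESeq2, 1426 with all genes of at least 1 count, 90 with the block and 144 with all 18 libraries (28 to 479 without single libraries). In follicular cells it called 115, against 352, 602, 212 and 49 (32 to 112), and after CD40L 3, against 79, 216, 21 and 82 (1 to 9). The interaction with CD40L called 0, against 29 with DESeq2 and 210 with at least 1 count, and that with maturation 10, against 364, 462, 5 with library totals, 20 with the block, 99 with the block within genotype and 0 with all 18 libraries. The maturation interaction ranged from 0 to 23 without single libraries and was 0 in 9 of those 12 fits (all but those without transitional WT replicate 1, 23, transitional knockout replicate 2, 10, and follicular WT replicate 3, 16). Maturation called 3772 genes in WT (2444 to 3773 without single libraries, the lowest without follicular WT replicate 1) and 1518 in the knockout (986 to 1647, lowest without follicular knockout replicate 3, 986, or transitional knockout replicate 2, 992). Library totals moved the median log2 change of all genes after CD40L in WT from -0.08 to -0.22 and the share of called genes that were higher in follicular knockout cells from 57.4% to 47.0%. They also moved the median of the CD40L interaction from 0.01 to 0.11. The higher share of the genes called in the maturation interaction went from 70% of 10 genes to 40% of 5 genes. The lowest counts were those of *Klf4*, *Tob1* and cultured *Klf2*, where the spread between libraries also entered the intervals.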
